A study of Homo sapiens with 15 samples.

Results

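The collagen genes were followed through the induction of MSX1, a homeodomain transcription factor, in IMR32, an established human neuroblastoma cell line. Every gene whose single symbol in the platform annotation had the form of a collagen chain, COL and a number followed by A and a number, was taken. This gave 43 of the 19775 genes with 1 symbol, on 112 probe sets. Each gene was read on its probe set with the highest mean signal over all 15 arrays, a choice that used no group.

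The cells had been transfected with an MSX1 gene that doxycycline, a tetracycline relative, switches on, and all 5 groups carried it. The groups were cells at t = 0, cells with doxycycline at t = 8, t = 24 and t = 48 (induced cells below), and control cells cultured without doxycycline to t = 48, with 3 arrays in each. The labels state no unit of time and do not say whether replicates were separate cultures, so a p-value reflects variation among these arrays that could be technical. Cells lacking the construct were not among the arrays analysed here, so the drug by itself was not tested, and no control arrays stand beside t = 8 and t = 24, so at those times induction and time in culture cannot be told apart.

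Collagens are the main structural proteins of the extracellular matrix. Chains made of repeated glycine-X-Y triplets wind around each other in a triple helix, and a collagen type is named by its chains, so that COL6A1, COL6A2 and COL6A3 encode the chains of the classical type VI trimer. Fibrillar types such as I, III and V assemble into fibrils, type IV forms the network of basement membranes, type VI forms beaded microfibrils, fibril-associated types decorate fibrils, and types XIII, XXIII and XXV span the cell membrane. In neuroblastic tumours, collagen matrix is known mainly from the Schwann cell and fibroblast stroma rather than from the neuroblasts.

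Signals were MAS5 intensities on a linear scale, with every array scaled to the same trimmed mean, and array medians lay between 18.1 and 22.6. The 3' to 5' ratio of the GAPDH control lay between 0.96 and 1.09, and that of ACTB read 1.27 to 1.52 in induced cells at t = 48, against 1.22 to 1.31 in control cells and 1.18 to 1.39 at t = 0. The 5' probe set of bioC, a spiked hybridisation control, read 87.6 to 98.9 on induced t = 24 replicate 1 and induced t = 48 replicate 3 and 346.3 to 429.6 on the other arrays. The brighter of the pair of MSX1 probe sets read 140.1 to 184.1 at t = 8, 142.2 to 182.3 at t = 24 and 67.7 to 96.9 at t = 48 in induced cells, against 46.5 to 55.5 in control cells at t = 48 and 95.5 to 121.5 at t = 0. Induced and control cells did not overlap at t = 48, while induced t = 48 lay mostly below t = 0; the dimmer probe set was not higher in induced cells (9.2 to 20.2, against 9.1 to 28.4 in control cells at t = 48), so the labels were checked on 1 probe set and at t = 48 alone. Among 7 measured neuroblastoma markers, GATA3, MYCN and PHOX2A were bright in every group, with group means of at least 3168, 4540 and 976. HAND2 had group means of 89.7 to 118.2 and GATA2 of 36.1 to 58.8. Of the enzymes of catecholamine synthesis, DBH had 22.3 to 96.2 and TH at most 7.27. By the limma test described below, PHOX2A was higher in induced than in control cells at t = 48 (log2 difference 0.70, adjusted p = 0.000201). It was 1 of 6 tested markers, beside 5.31% of all tested genes called higher.

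Not all collagen genes gave usable signals. Of the 43, 24 were tested because their signal was at or above the median of its array on 3 or more arrays, and 16 of these were so on all 15. The other 19 had signals between 0.2 and 30.3. COL6A3 reached the median on all 6 induced arrays of t = 24 and t = 48 and nowhere else, and COL5A2 on 2 arrays of t = 24 and 1 of t = 48, so both passed the filter only through groups in which they were high. Differences were taken on log2(signal + 5.16), which understates changes of dim genes, and tested with limma over 12868 genes; a gene was called at an adjusted p (Benjamini-Hochberg over those genes) under 0.05. The arrays measure a mixture of cells, in which fewer cells making a transcript and less of it per cell cannot be told apart.

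At t = 48, COL6A3, COL13A1, COL3A1, COL6A1, COL5A1 and COL11A1 were higher in induced than in control cells. They encode a long chain of type VI collagen, a transmembrane collagen, the chain of fibrillar type III, another type VI chain, and chains of the fibril-regulating types V and XI. The differences on the log2 scale were 3.35 ± 0.39, 1.16 ± 0.08, 1.06 ± 0.22, 0.84 ± 0.12, 0.76 ± 0.11 and 0.72 ± 0.15 (SE), in that order. These were 6 of the 24 tested collagen genes, beside 8.6% of all tested genes called, 5.31% higher and 3.29% lower. No collagen gene was called lower, and in limma 8 of the 24 had an unadjusted p under 0.05, against 23.5% of all tested genes. COL6A3 is counted among the 6 although it entered the test through the induced arrays. Of the 16 genes at or above the array median on every array, 4 were called. The median difference was 0.25 over the tested collagen genes and -0.01 over all genes. All 6 calls held when any of the 6 arrays was left out and without the 2 arrays of weak hybridisation controls. When a gene was read as the mean of its kept probe sets, COL6A1 (0.22, adjusted p = 0.373) and COL11A1 (0.51, adjusted p = 0.0588) did not pass.

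**Figure D1:**
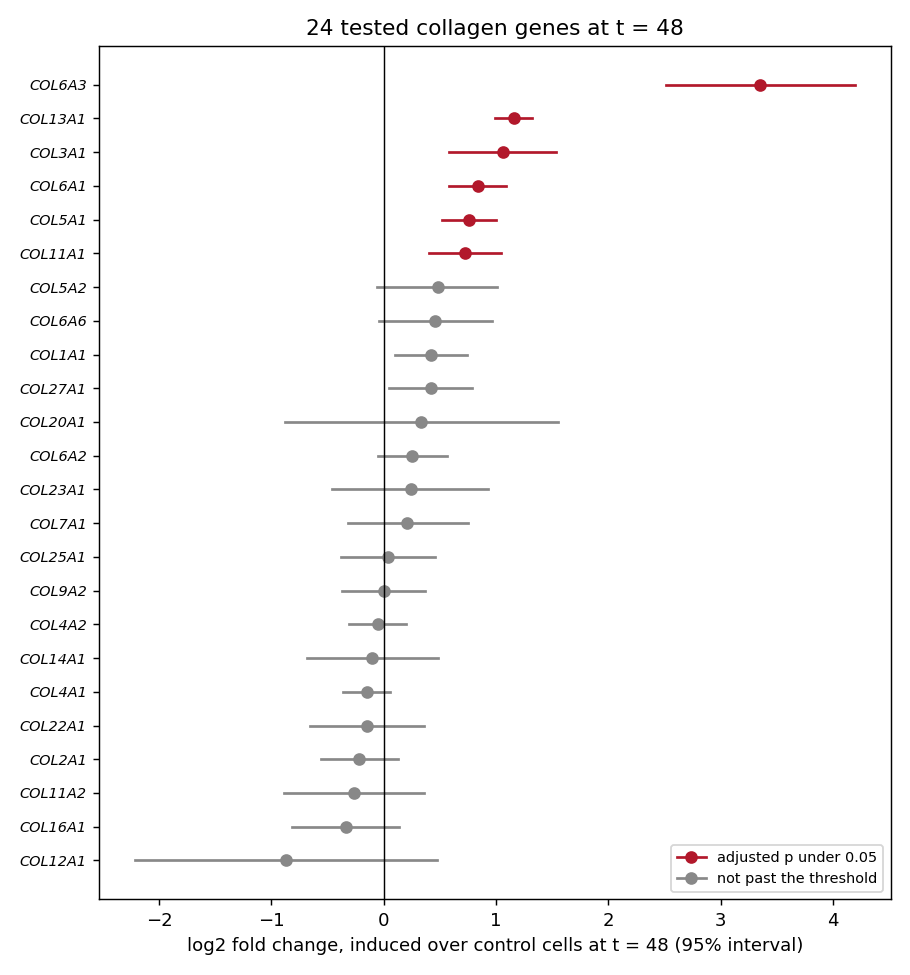
Log2 fold change of induced over control cells at t = 48 for the 24 tested collagen genes, on the log2(signal + 5.16) scale. Points are differences of means of 3 arrays each and bars are 95% intervals; the 6 red genes passed an adjusted p of 0.05, with COL6A3 at 3.35 farthest from 0.

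The start regions of the genes that differed varied in base composition. Promoter windows, 250 bases before to 50 after a transcription start (RefSeq, GRCh38.p14), were found for 31 of the 43 genes, in 43 windows. COL6A3, COL13A1, COL5A1 and COL11A1 are shown. Each was called higher in induced cells at both t = 24 (over t = 0) and t = 48 (over control cells). COL3A1 and COL6A1 were called in both comparisons too, but no window was found for them and they were not searched. COL4A1 is shown because its window also holds the start region of a neighbour, COL4A2. Capitals mark matches of the motifs searched on either strand (TAATTG, a core bound by MSX1, the E box CACGTG, the related CACGCG, the box CCAAT, the GC box core GGGCGG, and the AP-1 site TGACTCA), and each sequence reads 5' to 3' on the strand of its gene.
COL6A3, chr2:237414115-237414414, minus strand: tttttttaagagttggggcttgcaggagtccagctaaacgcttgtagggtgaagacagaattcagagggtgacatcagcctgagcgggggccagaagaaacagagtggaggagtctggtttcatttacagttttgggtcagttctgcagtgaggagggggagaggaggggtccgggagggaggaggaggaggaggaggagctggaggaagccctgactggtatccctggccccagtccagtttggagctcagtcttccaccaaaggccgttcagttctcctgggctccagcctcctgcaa
COL13A1, chr10:69801656-69801955, plus strand: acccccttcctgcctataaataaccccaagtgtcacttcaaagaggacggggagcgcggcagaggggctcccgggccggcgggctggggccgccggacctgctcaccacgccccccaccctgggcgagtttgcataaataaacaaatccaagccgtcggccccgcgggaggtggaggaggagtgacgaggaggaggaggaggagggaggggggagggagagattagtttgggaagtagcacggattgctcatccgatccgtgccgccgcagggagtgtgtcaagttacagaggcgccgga
COL5A1, chr9:134641553-134641852, plus strand: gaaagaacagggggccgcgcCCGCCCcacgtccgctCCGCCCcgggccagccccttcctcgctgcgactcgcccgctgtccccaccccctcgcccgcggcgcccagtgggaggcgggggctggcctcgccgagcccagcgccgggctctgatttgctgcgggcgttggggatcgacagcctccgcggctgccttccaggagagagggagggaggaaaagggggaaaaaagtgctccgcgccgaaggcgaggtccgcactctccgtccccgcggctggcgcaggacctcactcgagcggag
COL11A1, chr1:103108473-103108772, minus strand: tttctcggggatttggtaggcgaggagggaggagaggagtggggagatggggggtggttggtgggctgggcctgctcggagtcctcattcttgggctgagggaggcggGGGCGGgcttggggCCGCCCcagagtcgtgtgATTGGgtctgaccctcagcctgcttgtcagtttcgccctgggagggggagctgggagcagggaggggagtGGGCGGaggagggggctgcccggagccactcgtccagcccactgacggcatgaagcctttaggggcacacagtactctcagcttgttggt
COL4A1, chr13:110307108-110307407, minus strand: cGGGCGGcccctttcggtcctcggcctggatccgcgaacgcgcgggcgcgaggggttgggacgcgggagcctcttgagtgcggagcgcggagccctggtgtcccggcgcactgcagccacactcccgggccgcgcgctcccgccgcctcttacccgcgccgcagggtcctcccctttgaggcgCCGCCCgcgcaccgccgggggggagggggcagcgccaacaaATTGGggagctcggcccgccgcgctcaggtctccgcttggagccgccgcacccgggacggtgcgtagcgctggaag

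The windows of COL6A3 and COL13A1 held none of the motifs, that of COL5A1 held 2 matches of GGGCGG, that of COL11A1 held 3 of GGGCGG and 1 of CCAAT, and that of COL4A1 held 2 of GGGCGG and 1 of CCAAT. The base composition ran from 56.3% G and C in COL6A3, with 4 CpG, through 64.0% in COL13A1, 66.0% in COL11A1 and 74.0% in COL5A1 to 76.7% in COL4A1, with 45 CpG; the median over the 35116 windows of the table was 58.7%. TAATTG was in 1 of the 43 collagen windows (2.33%, COL4A6), against 7.38% of all windows. GGGCGG was in 55.81% of collagen windows and 44.95% of all, CCAAT in 30.23% and 34.61%, and CACGCG in 9.3% and 11.43%. CACGTG and TGACTCA were in none of the collagen windows and in 7.26% and 4.95% of all. These shares describe the letters of short windows and were not tested; several genes have more than 1 window, and overlapping windows share bases.

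Markers of other collagen-making cells were read beside these results. Of 10 fibroblast markers without collagens, 8 were tested and 2 were higher in induced than in control cells at t = 48, LUM and PDGFRA (0.40, adjusted p = 0.0342), beside 5.31% of all tested genes called higher. The other tested markers, ACTA2, DCN, FBLN1, PDGFRB, TAGLN and THY1, had negative differences that did not pass (-0.31 to -0.04), and the median of the tested markers was -0.14. The summed signal of the list, to which PDGFRA and FBLN1 add most, was 1894.9 to 1940.8 in induced cells at t = 48, against 1656.3 to 1751.1 in control cells, and 2057.0 to 2137.8 at t = 24, against 1485.6 to 1530.8 at t = 0, without overlap in either pair. FAP and POSTN, which mark activated fibroblasts, had group means between 1.40 and 4.83 and between 0.60 and 4.80 in all 5 groups. The 3 measured Schwann cell markers summed to 15.7 to 24.7 in induced cells at t = 48, against 9.7 to 57.9 in control cells, and the 5 endothelial ones to 44.0 to 58.1, against 53.2 to 88.8. LUM averaged 9.73 at t = 0, 11.7 at t = 8 and 7.43 in control cells. These means lay under the array medians, so its entry to the test may rest on induced arrays. The part of the fibroblast markers in the collagen results was not tested.

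The largest difference of a tested collagen gene at t = 48 belonged to type VI collagen. COL6A3, whose large chain carries most of the globular domains of the trimer, read 1.1, 9.9 and 2.0 at t = 0. In induced cells COL6A3 read 1.9, 13.8 and 8.1 at t = 8, 68.0, 66.5 and 63.0 at t = 24 and 92.6, 78.0 and 83.3 at t = 48, against 1.4, 9.0 and 2.1 in control cells at t = 48. All 6 induced arrays of t = 24 and t = 48 lay far above all 9 others, and the replicate numbered 2 was the highest of its 3 at t = 0, at t = 8 and in control cells. The log2 fold change over t = 0 was 0.46 at t = 8 (adjusted p = 0.837), 3.02 at t = 24 (adjusted p = 0.000298) and 3.35 at t = 48 (adjusted p = 0.000108). Against control cells it was also 3.35 at t = 48 (adjusted p = 0.000174), a 10.2-fold change on this scale. Since the low groups lie near the bottom of the scale, the offset sets its size: the value was 4.34 with an offset of 1 and 2.34 with an offset of 16, and passed with both. COL6A3 has 1 probe set here.

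COL6A1 and COL6A2, adjacent genes on chromosome 21 that encode the shorter chains of the same trimer, differed by smaller amounts. COL6A1 read 286.5, 290.5 and 263.4 at t = 0. In induced cells COL6A1 read 343.8, 298.9 and 291.4 at t = 8, 544.4, 440.0 and 418.0 at t = 24 and 553.4, 508.7 and 500.2 at t = 48, against 248.9, 321.6 and 302.5 in control cells at t = 48. Every array of t = 24 and t = 48 in induced cells exceeded every other array. The log2 fold change at t = 48 was 0.84 over control cells (1.78-fold, adjusted p = 0.00081), and over t = 0 it was 0.72 at t = 24 (adjusted p = 0.00201) and 0.88 at t = 48 (adjusted p = 0.000347). Read as the mean of its kept probe sets, COL6A1 passed in none of these 3 comparisons (0.22 to 0.42, adjusted p = 0.0785 to 0.373).

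COL6A2 read 86.6, 114.8 and 99.1 at t = 0. In induced cells COL6A2 read 121.2, 107.6 and 83.4 at t = 8, 151.2, 151.2 and 137.1 at t = 24 and 147.1, 165.0 and 124.0 at t = 48, against 119.0, 115.6 and 126.4 in control cells at t = 48. Induced arrays of t = 24 and t = 48 were above all of t = 0, while those of t = 48 overlapped with control cells. It was called at t = 24 (0.53, adjusted p = 0.0291) and t = 48 (0.51, adjusted p = 0.0248) over t = 0. Its other kept probe set, which was dimmer, passed at neither time, with 0.17 at t = 24 (adjusted p = 0.635) and -0.02 at t = 48 (adjusted p = 0.968). Over control cells at t = 48 the difference was 0.25, with a 95% interval from -0.05 to 0.56 (adjusted p = 0.298). The t = 24 call was lost without t = 0 replicate 1 or 3 or induced t = 24 replicate 1 or 2 (0.44 to 0.53, adjusted p = 0.0757 to 0.099), and the t = 48 call without t = 0 replicate 1 or 3 or induced t = 48 replicate 1 or 2 (0.42 to 0.51, adjusted p = 0.0598 to 0.0921).

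COL6A6, an alternative chain related to that of COL6A3, read 51.7, 39.1 and 25.4 at t = 0. In induced cells COL6A6 read 40.0, 36.9 and 22.7 at t = 8, 65.9, 67.3 and 70.1 at t = 24 and 70.3, 42.3 and 50.8 at t = 48, against 36.2, 38.2 and 37.9 in control cells at t = 48. The arrays of t = 24 were tight and above all of t = 0 and t = 8, and those of t = 48 spread widely. It was called at t = 24 over t = 0 (0.78, adjusted p = 0.0481) and over t = 8 (0.96, adjusted p = 0.0295), but not at t = 48 over control cells (0.46, 95% interval -0.04 to 0.96, adjusted p = 0.25). The first call was lost without t = 0 replicate 2 or 3 or any array of induced t = 24 (0.54 to 0.81, adjusted p = 0.097 to 0.163), and the other without t = 8 replicate 2 or 3 or any array of t = 24 (0.74 to 1.04, adjusted p = 0.0531 to 0.0899). Together, each read on its brightest probe set, 4 of the 4 tested genes of type VI were called higher at t = 24 over t = 0 (5.96% of all tested genes). COL6A3 was among them by way of the filter. COL6A5, the neighbour of COL6A6 on chromosome 3, was not tested, with signals of 1.2 to 11.4.

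**Figure D2:**
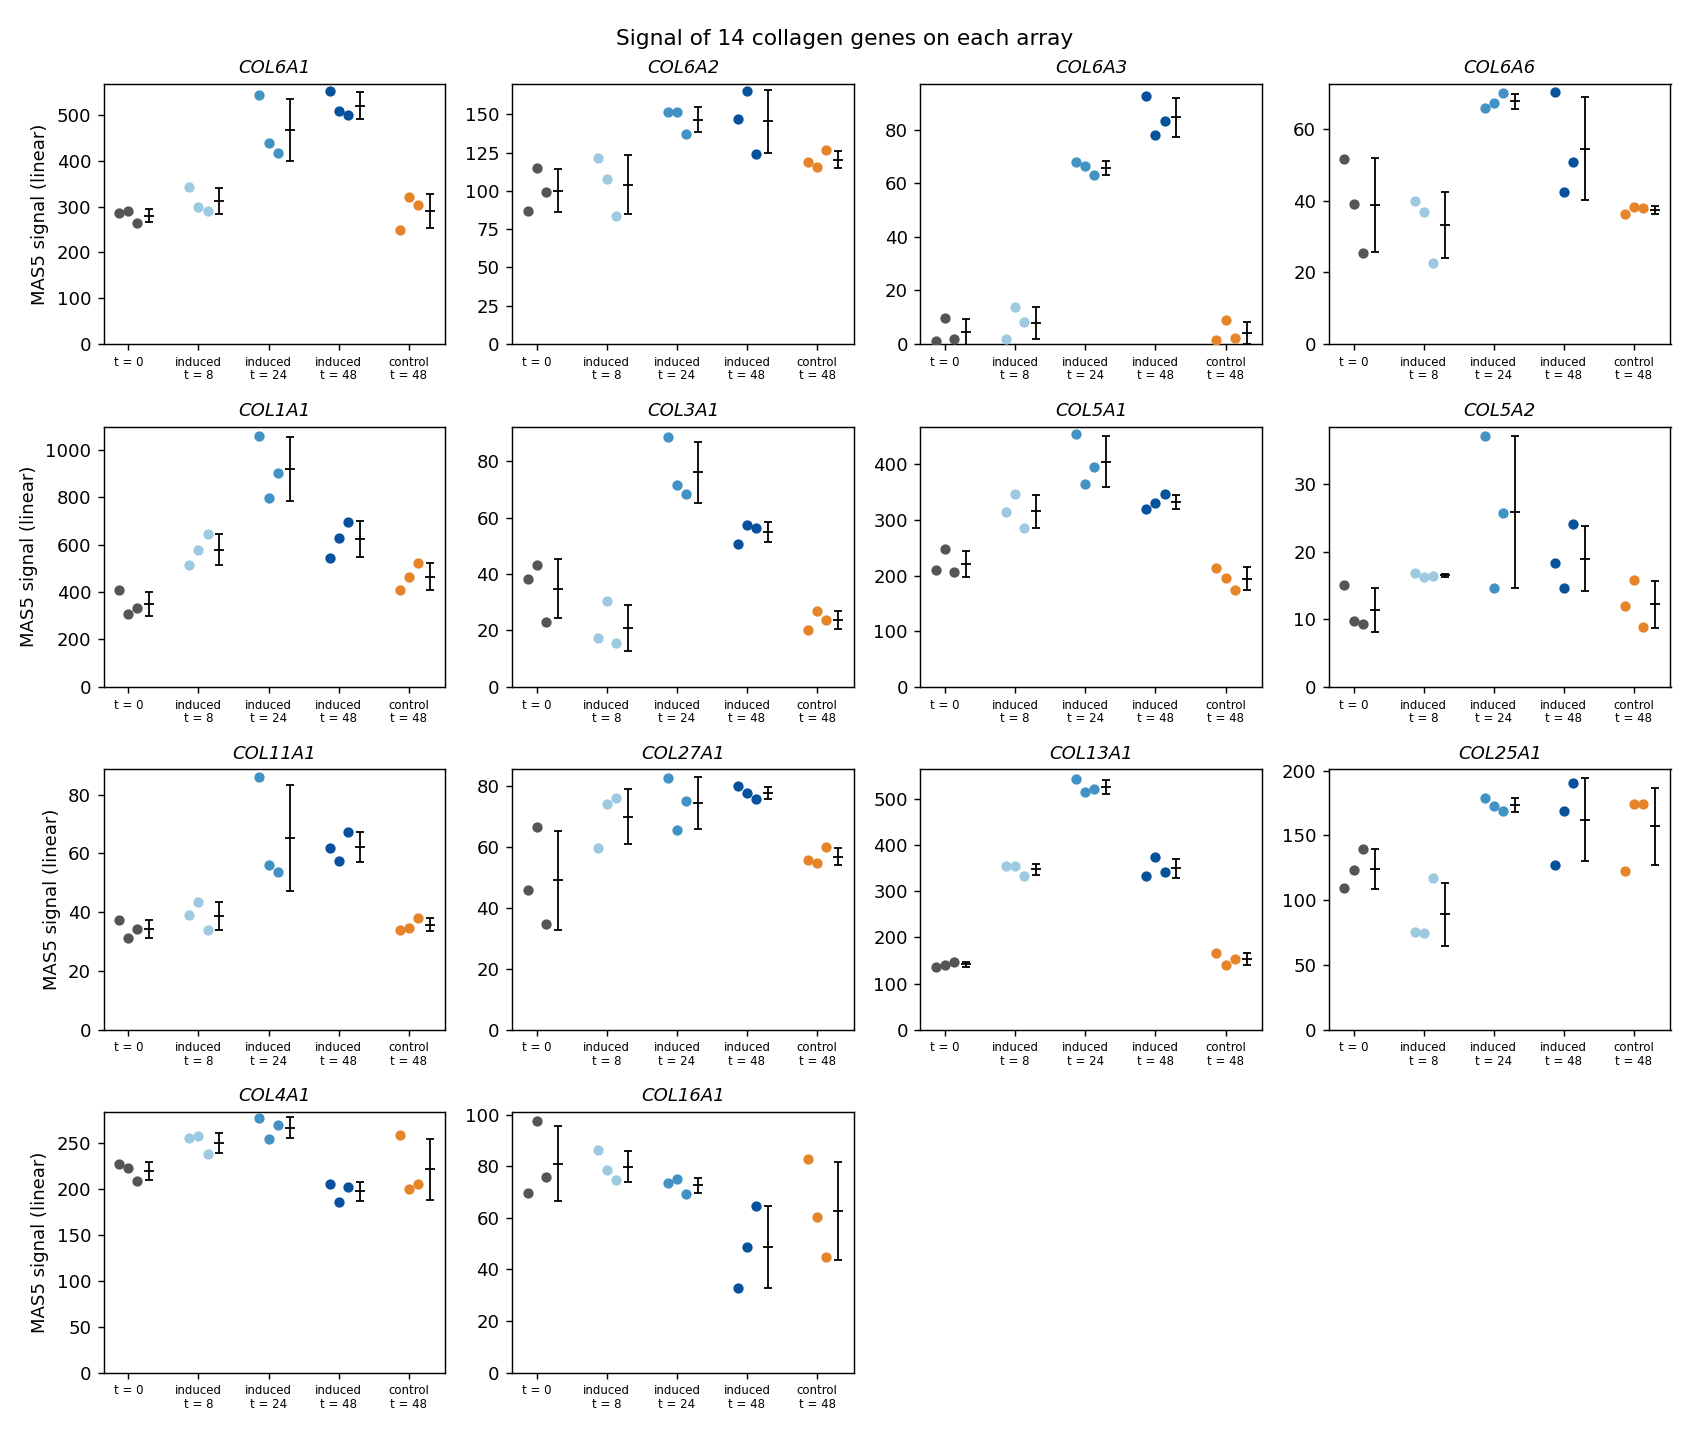
MAS5 signal (linear axis from 0, its scale differing between panels) of the 14 collagen genes called in any comparison; points are single arrays and the bar beside them is the mean ± SD of 3 arrays. COL6A3 stands between 63.0 and 92.6 in induced cells at t = 24 and t = 48 and at most 13.8 elsewhere. Of the 14 genes, which were picked by their calls, 10 have their highest mean of the induced course at t = 24. Of all 24 tested collagen genes, 12 have it there, and the share over all tested genes was not counted.

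Among fibrillar collagens, COL1A1 encodes the main chain of type I collagen. On its brightest probe set it was called at all 3 induced times over t = 0 and had its highest mean at t = 24. It read 407.1, 308.3 and 333.3 at t = 0. In induced cells COL1A1 read 513.7, 576.8 and 646.0 at t = 8, 1060.0, 795.5 and 900.3 at t = 24 and 545.3, 627.4 and 695.3 at t = 48, against 407.4, 463.5 and 520.8 in control cells at t = 48. All 9 induced arrays lay above all of t = 0. The log2 fold change over t = 0 was 0.72 at t = 8 (adjusted p = 0.0229), 1.38 at t = 24 (2.6-fold, adjusted p = 6.51e-05) and 0.83 at t = 48 (adjusted p = 0.00233). Control cells at t = 48 differed from t = 0 by 0.41 without passing (adjusted p = 0.293), the lowest control array at 407.4 and the highest of t = 0 at 407.1. Induced exceeded control cells at t = 48 on every array, yet the difference of 0.42 (95% interval 0.10 to 0.74) did not pass either (adjusted p = 0.102). The t = 8 call was lost without t = 0 replicate 2 or 3 or t = 8 replicate 2 or 3 (0.64 to 0.72, adjusted p = 0.077 to 0.094).

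The probe sets of COL1A1 did not move alike. Fitted over all kept probe sets, 3 of its 4 were called higher at t = 24 over t = 0, with log2 fold changes of 1.38, 1.0 and 1.05 (adjusted p = 0.00012, 0.00038 and 0.00828), while the third in brightness gave -0.13 (adjusted p = 0.636). At t = 48 that probe set was called lower in induced than in control cells (-0.51, adjusted p = 0.0464), beside 0.42 and 0.44 on the brighter pair, which did not pass (adjusted p = 0.121 and 0.0582). The sign for COL1A1 at t = 48 thus differed between probe sets. At t = 8 over t = 0 the dimmer kept probe sets gave 0.49, 0.22 and 0.12, and none of them passed (adjusted p = 0.0967, 0.772 and 0.966). At t = 48 over t = 0 they gave 0.48, -0.27 and 0.36, of which the first alone passed (adjusted p = 0.0249, 0.224 and 0.265). COL1A2, the partner chain of type I collagen, was not tested, with signals of 1.6 to 25.1.

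COL3A1, the chain of type III collagen, which often accompanies type I in stretchy tissues, read 38.2, 43.1 and 23.1 at t = 0. In induced cells COL3A1 read 17.2, 30.3 and 15.4 at t = 8, 88.5, 71.4 and 68.3 at t = 24 and 50.7, 57.2 and 56.4 at t = 48, against 20.3, 27.0 and 23.8 in control cells at t = 48. The lowest mean of the course was at t = 8 and the highest at t = 24, and the arrays of these times did not overlap. The difference between t = 24 and t = 8 was 1.67 (3.19-fold, adjusted p = 0.00113), that between t = 24 and t = 0 was 1.05 (adjusted p = 0.00886), and that between t = 8 and t = 0, -0.62, did not pass (adjusted p = 0.28). At t = 48 the gene was higher in induced than in control cells (1.06, 2.08-fold, adjusted p = 0.0101), whereas over t = 0 the 0.62 did not pass (adjusted p = 0.0677). The t = 24 call over t = 0 was lost without both arrays of weak hybridisation controls (0.94, adjusted p = 0.0529). Its other kept probe sets gave 0.52 (adjusted p = 0.233) and 0.82 (adjusted p = 0.0595) against control cells.

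The chains of type V collagen, which sets the diameter of type I fibrils, were both called at t = 24. COL5A1 read 210.5, 248.6 and 206.2 at t = 0. In induced cells COL5A1 read 314.0, 346.3 and 286.4 at t = 8, 454.2, 364.7 and 395.9 at t = 24 and 320.5, 330.2 and 346.8 at t = 48, against 213.7, 196.7 and 174.1 in control cells at t = 48. Every induced array lay above every array of t = 0 and of control cells. It was called at t = 8 (0.50, adjusted p = 0.0381), t = 24 (0.85, adjusted p = 0.000338) and t = 48 (0.58, adjusted p = 0.00384) over t = 0, and at t = 48 over control cells (0.76, 1.69-fold, adjusted p = 0.001). All 3 probe sets of COL5A1 were called higher in induced than in control cells, with 0.76, 1.29 and 1.20. The t = 8 call was lost without t = 0 replicate 1 or 3 or t = 8 replicate 1 or 2 (0.43 to 0.50, adjusted p = 0.107 to 0.158).

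COL5A2, the other common chain of type V and the neighbour of COL3A1 on chromosome 2, was dim. It read 15.1, 9.8 and 9.3 at t = 0. In induced cells COL5A2 read 16.8, 16.3 and 16.4 at t = 8, 37.1, 14.6 and 25.8 at t = 24 and 18.3, 14.6 and 24.1 at t = 48, against 12.0, 15.8 and 8.8 in control cells at t = 48. The arrays of t = 24 ranged widely and overlapped with t = 0. It was called at t = 24 over t = 0 (0.85, adjusted p = 0.0448) and in no other comparison, and the call was lost without t = 0 replicate 2 or 3 or induced t = 24 replicate 1 or 3 (0.60 to 0.82, adjusted p = 0.108 to 0.167).

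COL11A1, a chain of type XI, the minor fibrillar collagen best known from cartilage, read 37.4, 31.4 and 34.3 at t = 0. In induced cells COL11A1 read 39.1, 43.4 and 34.0 at t = 8, 85.9, 56.1 and 53.6 at t = 24 and 61.7, 57.4 and 67.4 at t = 48, against 34.1, 34.7 and 38.2 in control cells at t = 48. All induced arrays of t = 24 and t = 48 exceeded all others, with replicate 1 of t = 24 the highest. The difference from control cells at t = 48 was 0.72 (1.65-fold, adjusted p = 0.0099), and those from t = 0 were 0.81 at t = 24 (adjusted p = 0.00411) and 0.77 at t = 48 (adjusted p = 0.00374). Its other kept probe set gave 0.29 against control cells (adjusted p = 0.423) and 0.83 at t = 24 over t = 0 (adjusted p = 0.0235).

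COL27A1, the chain of type XXVII, a fibrillar collagen also known from cartilage, read 45.8, 66.8 and 34.8 at t = 0. In induced cells COL27A1 read 59.6, 74.2 and 76.3 at t = 8, 82.8, 65.7 and 75.1 at t = 24 and 80.0, 77.8 and 75.9 at t = 48, against 55.8, 54.9 and 60.1 in control cells at t = 48. Induced cells at t = 48 were above both t = 0 and control cells without overlap, and those at t = 24 overlapped with t = 0, whose replicate 3 was the lowest array of all. It was called over t = 0 at t = 24 (0.59, adjusted p = 0.0445) and t = 48 (0.66, adjusted p = 0.0201), and the 0.42 over control cells did not pass (adjusted p = 0.158). The first call was lost without t = 0 replicate 1 or 3 or any array of induced t = 24 (0.39 to 0.67, adjusted p = 0.0525 to 0.148), and the other without t = 0 replicate 1 or 3 or induced t = 48 replicate 1 or 2 (0.46 to 0.66, adjusted p = 0.0514 to 0.0679). Its other kept probe sets gave -0.25 and 0.30 at t = 24 over t = 0.

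The remaining tested fibrillar genes, COL2A1 and COL11A2, passed in no comparison. COL2A1, the chain of cartilage type II, averaged 46.7 ± 3.33 at t = 0 (SD, n = 3 here and below). Its induced means were 37.8 ± 7.41, 35.2 ± 8.28 and 52.9 ± 8.96 for t = 8, t = 24 and t = 48, against 61.8 ± 3.56 in control cells at t = 48. COL11A2, a further chain of type XI, averaged 33.5 ± 10.6 in induced and 42.5 ± 19.6 in control cells at t = 48. COL5A3 and COL24A1, beside COL1A2, were not tested. Of the 11 fibrillar genes 8 were tested, of which 3 were called higher at t = 48 over control cells (5.31% of all tested genes) and 6 at t = 24 over t = 0 (5.96%), COL5A2 among these by way of the filter, and their median differences were 0.45 and 0.83, against -0.01 over all genes in both comparisons.

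Of the collagens that span the membrane, COL13A1 was called in every comparison of induced cells with t = 0 or control cells. Its product, type XIII collagen, sits at sites of cell adhesion and at the neuromuscular junction. It read 136.5, 140.7 and 147.0 at t = 0. In induced cells COL13A1 read 353.8, 353.7 and 333.6 at t = 8, 542.9, 514.6 and 519.9 at t = 24 and 332.4, 372.9 and 342.2 at t = 48, against 166.7, 141.1 and 153.9 in control cells at t = 48. The 9 induced arrays lay above the 6 others by a wide margin, and t = 24 stood above t = 8 and t = 48. The log2 fold change over t = 0 was 1.26 at t = 8 (2.4-fold, adjusted p = 4.49e-06), 1.86 at t = 24 (3.62-fold, adjusted p = 4.27e-08) and 1.27 at t = 48 (2.42-fold, adjusted p = 5.65e-07), and it was 1.16 over control cells at t = 48 (2.23-fold, adjusted p = 1.86e-06). The step to t = 24 from t = 8 was 0.59 (adjusted p = 0.00108), and t = 48 fell by 0.58 against t = 24 (adjusted p = 0.000678), a call lost for the mean of its kept probe sets (-0.43, adjusted p = 0.0522). Its other kept probe sets gave 0.91 (adjusted p = 0.0155) and 0.63 (adjusted p = 0.0734) over control cells.

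COL25A1, whose product is also known as a component of amyloid plaques, read 109.3, 123.4 and 139.7 at t = 0. In induced cells COL25A1 read 75.3, 74.6 and 117.4 at t = 8, 179.1, 172.5 and 168.5 at t = 24 and 127.1, 168.7 and 190.7 at t = 48, against 122.7, 173.9 and 174.5 in control cells at t = 48. The arrays of t = 24 were above all of t = 0 and t = 8, whereas induced and control cells at t = 48 overlapped almost fully. It was called in 1 comparison, t = 24 over t = 8 (0.95, 1.93-fold, adjusted p = 0.0132), and differed by 0.04 from control cells at t = 48 (adjusted p = 0.915). The call was lost without t = 8 replicate 1 or 2 or t = 24 replicate 1 (0.85 to 0.93, adjusted p = 0.0503 to 0.0584), and its other kept probe sets gave 0.07 and 0.35 there. COL23A1, the chain of type XXIII, averaged 24.3 ± 3.88 in induced and 19.7 ± 2.0 in control cells at t = 48 (SD, n = 3 each) and was called in no comparison.

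The basement membrane chains COL4A1 and COL4A2, which form the ubiquitous type IV trimer, were bright at all times. COL4A1 read 227.1, 222.7 and 207.9 at t = 0. In induced cells COL4A1 read 255.2, 257.4 and 237.4 at t = 8, 276.8, 253.4 and 269.1 at t = 24 and 204.7, 185.4 and 201.3 at t = 48, against 258.7, 199.1 and 205.1 in control cells at t = 48. Its arrays of t = 48 lay below those of t = 24 and overlapped with control cells. It fell by 0.43 at t = 48 against t = 24 (adjusted p = 0.0252), a call lost without any array of t = 48 or replicate 1 or 3 of t = 24 (-0.45 to -0.38, adjusted p = 0.0542 to 0.112). Induced cells at t = 48 differed from control cells by -0.15, with a 95% interval from -0.36 to 0.06 (adjusted p = 0.368).

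COL4A2 averaged 521.5 ± 55.0 at t = 0 (SD, n = 3 here and below). Its induced means were 536.3 ± 43.6, 616.4 ± 78.0 and 485.1 ± 27.3 for t = 8, t = 24 and t = 48, against 504.9 ± 58.6 in control cells at t = 48. It passed in no comparison, with -0.05 against control cells (95% interval -0.31 to 0.20, adjusted p = 0.826) and -0.34 at t = 48 against t = 24 (adjusted p = 0.17). The genes lie head to head on chromosome 13 with their starts 127 bases apart, so that 226 of the 300 bases of the COL4A1 window printed above also belong to the window of COL4A2. The other 4 type IV genes, COL4A3 to COL4A6, which encode chains of restricted membranes such as that of the kidney glomerulus, had signals of 0.4 to 26.0 and were not tested.

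Fibril-associated collagens, which sit on the surface of fibrils, gave no call upwards in any comparison among 6 tested genes. Over all tested genes, 0.482% to 9.93% were called higher, depending on the comparison. With so few genes, the lack of calls is not read as a trait of the class. COL16A1, the chain of type XVI, read 69.8, 97.7 and 75.7 at t = 0. In induced cells COL16A1 read 86.3, 78.6 and 74.6 at t = 8, 73.6, 74.9 and 69.3 at t = 24 and 32.7, 48.8 and 64.5 at t = 48, against 82.7, 60.2 and 45.0 in control cells at t = 48. Induced arrays of t = 48 were all below t = 0 and overlapped with control cells. It was the only tested collagen gene called lower over t = 0, at t = 48 (-0.71, adjusted p = 0.0433), beside 8.2% of all tested genes. The call was lost without any array of t = 0 or replicate 1 or 2 of induced t = 48 (-0.80 to -0.48, adjusted p = 0.0523 to 0.146). Against control cells the difference was -0.34 (adjusted p = 0.384). Of the 10 genes of the class 6 were tested; COL9A2 averaged 32.2 ± 5.02 in induced and 32.7 ± 8.61 in control cells at t = 48, and COL12A1 averaged 10.5 ± 6.77 in induced and 22.4 ± 9.62 in control cells (-0.87, adjusted p = 0.427). COL14A1, COL20A1 and COL22A1 also passed in no comparison, and COL19A1, COL21A1, COL9A1 and COL9A3 were not tested.

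In the other classes no gene was called. COL7A1, the chain of the anchoring fibrils beneath epithelia, averaged 72.3 ± 7.62 in induced and 62.7 ± 15.7 in control cells at t = 48 (SD, n = 3 each) and passed in no comparison. COL15A1 and COL18A1, precursors of the fragments restin and endostatin, had signals of 0.6 to 30.3. The short-chain COL8A1, COL8A2 and COL10A1 had 0.2 to 22.7, and COL26A1 and COL28A1 had 0.4 to 15.1, so that none of these 7 genes was tested. With no filter, over all 19775 genes, limma called 0 of the 19 dim genes in any comparison. In 8 of their 133 gene-comparison pairs the unadjusted p was under 0.05, against 14.3% over all genes, and the lowest adjusted p was 0.0859, for COL8A2 at t = 48 over t = 0 in induced cells (-0.82).

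Over the induced course, 3 collagen genes were called at t = 8, 11 at t = 24 and 9 at t = 48 over t = 0. At t = 8, 3 of the 24 tested genes were called higher than at t = 0 (COL13A1, COL1A1 and COL5A1) and 0 lower, beside 2.1% of all tested genes called, 1.1% higher and 0.995% lower. In limma 6 of the 24 had an unadjusted p under 0.05, against 9.95% of all tested genes. At t = 24, 11 were called higher and 0 lower, beside 10.8% of all tested genes called, 5.96% higher and 4.87% lower, and 14 had an unadjusted p under 0.05, against 25.9% of all tested genes. The 11 include COL6A3 and COL5A2, which passed the filter only through induced arrays, and of the 16 genes at or above the median on every array, 8 were called higher. At t = 48, 8 were called higher (COL6A3, COL13A1, COL6A1, COL1A1, COL11A1, COL27A1, COL5A1 and COL6A2) and 1 lower, COL16A1, beside 18.1% of all tested genes called, 9.93% higher and 8.2% lower, and 11 had an unadjusted p under 0.05, against 32.9% of all tested genes. COL6A3 again entered through induced arrays, and of the same 16 genes 7 were called higher and 1 lower. The median difference from t = 0 over the tested collagen genes was 0.02, 0.41 and 0.41 at t = 8, t = 24 and t = 48, and that over all genes 0.01, -0.01 and -0.02. These comparisons share the arrays of t = 0.

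Leaving out 1 array moved some of these counts. The count at t = 8 over t = 0 was 1 without t = 0 replicate 3 or induced t = 8 replicate 2. The count at t = 24 over t = 0 was 7 without t = 0 replicate 3 or induced t = 24 replicate 1, which is 1 of the 2 arrays of weak hybridisation controls. Without both arrays of weak hybridisation controls the counts were 3 at t = 8, 7 at t = 24 and 8 at t = 48. For t = 24 over t = 8 and t = 48 against t = 24 they were 5 and 1.

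**Figure D3:**
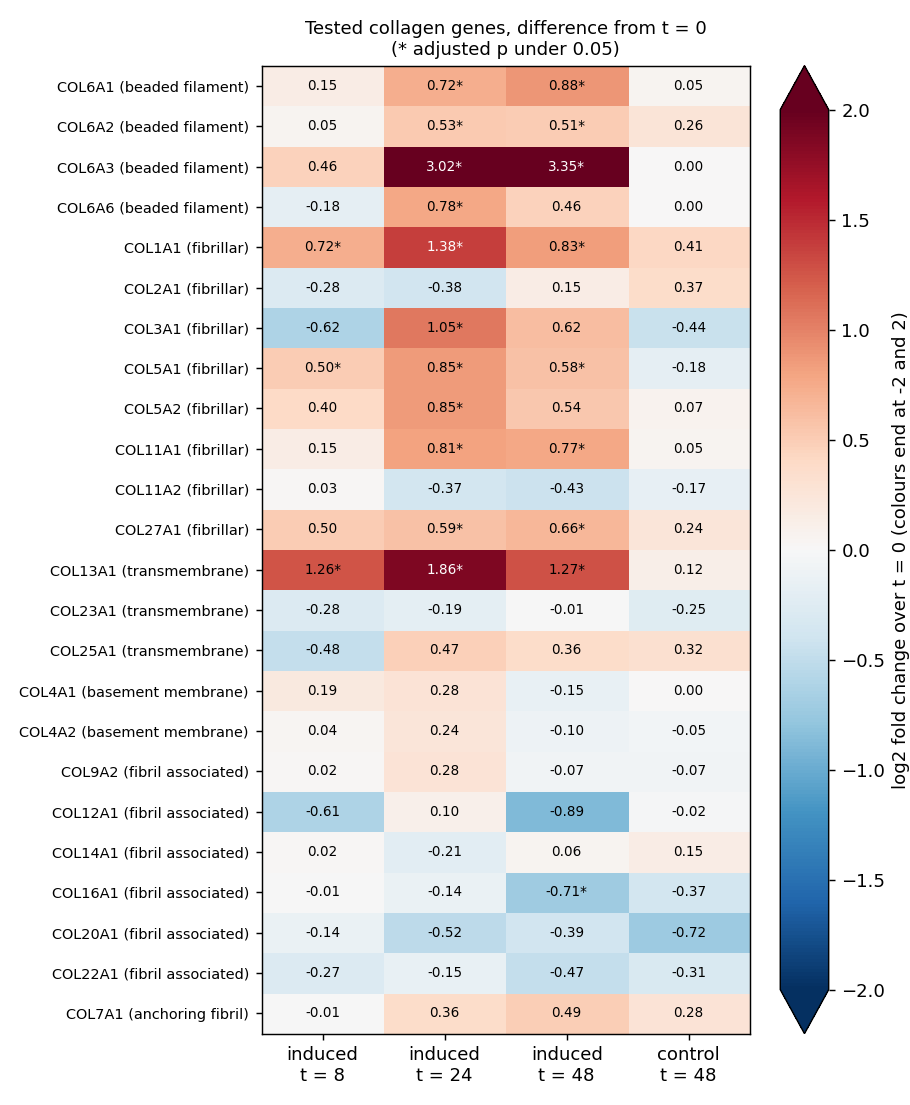
Log2 fold change over t = 0 of the 24 tested collagen genes (rows, by class), with columns for induced t = 8, t = 24, t = 48 and for control cells of t = 48; red is higher and blue lower, colours end at -2 and 2, and an asterisk marks an adjusted p under 0.05. The column of t = 24 holds 11 asterisks, all on positive values, and that of the control cells holds 0.

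At t = 24 against t = 8, 8 collagen genes were called higher and 0 lower, beside 6.29% of all tested genes called, 3.46% higher and 2.84% lower. The 8 were COL6A3 (2.55), COL3A1 (1.67), COL6A6 (0.96), COL25A1 (0.95), COL1A1 (0.66), COL11A1 (0.65), COL13A1 (0.59) and COL6A1 (0.57). In limma 10 of the 24 had an unadjusted p under 0.05, against 22.6% of all tested genes. COL6A3 entered through induced arrays here too, and of the same 16 genes, 6 were called higher. The median difference was 0.36 over the tested collagen genes and -0.01 over all genes. The call of COL1A1 was lost without t = 8 replicate 1 or 2 or t = 24 replicate 1 or 3 (0.55 to 0.67, adjusted p = 0.0543 to 0.0846), that of COL11A1 without t = 8 replicate 1 or 3 (0.57 to 0.66, adjusted p = 0.0634 to 0.0743), and that of COL6A1 without t = 8 replicate 2 or 3 or t = 24 replicate 1 (0.46 to 0.55, adjusted p = 0.0524 to 0.056). The count was 4 without t = 8 replicate 2 or t = 24 replicate 1 and 5 without t = 8 replicate 3.

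At t = 48 against t = 24, 0 collagen genes were called higher and 2 lower, COL13A1 and COL4A1, beside 4.04% of all tested genes called, 2.42% higher and 1.62% lower. In limma 7 of the 24 had an unadjusted p under 0.05, against 14.7% of all tested genes, and the median difference was -0.19 over the tested collagen genes and -0.01 over all genes. COL1A1 lay 0.55 lower at t = 48 without passing (adjusted p = 0.0569). The count was 1 without any array of t = 48 or without t = 24 replicate 3.

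Cells cultured without doxycycline were compared with t = 0 as a measure of time in culture. Between control cells at t = 48 and cells at t = 0, 0 of the 24 were called by limma, beside 0.847% of all tested genes, and 2 had an unadjusted p under 0.05, against 11.2% of all genes. The median difference was 0.00 in both sets. COL13A1 differed by 0.12 (adjusted p = 0.636), COL6A3 by 0.00, COL6A2 by 0.26 (adjusted p = 0.53) and COL2A1 by 0.37 (adjusted p = 0.404).

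**Figure D4:**
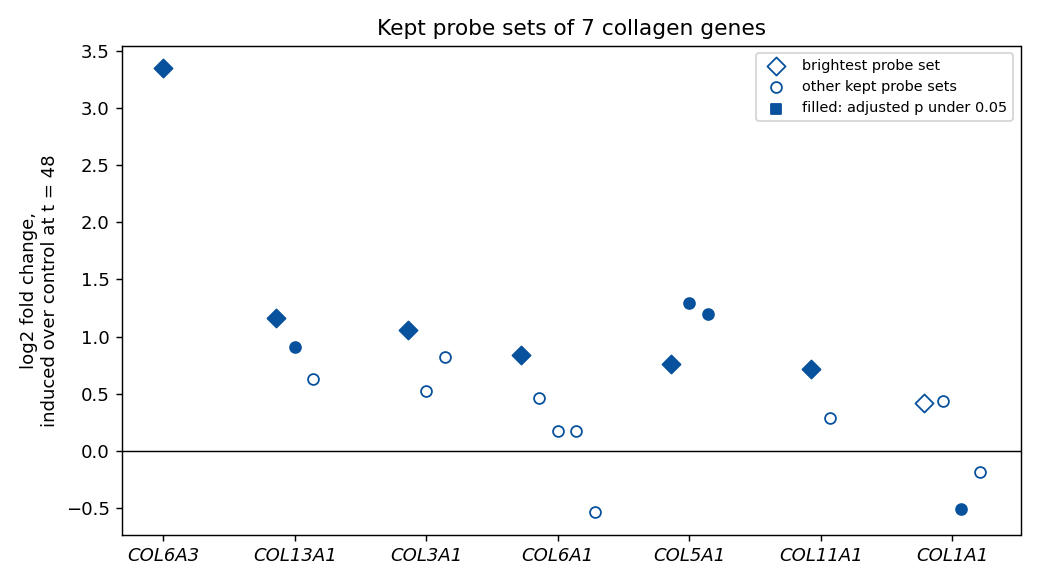
Log2 fold change of induced over control cells at t = 48 for each kept probe set of 7 collagen genes; diamonds are the brightest probe set of a gene, circles the others, and filled symbols passed an adjusted p of 0.05 over all kept probe sets. All 3 probe sets of COL5A1 are filled and above 0, while COL1A1 has 1 filled circle at -0.51 and COL6A1 runs from -0.54 to 0.84.

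Some tested collagen genes are chromosomal neighbours. In RefSeq no protein-coding gene lies between COL3A1 and COL5A2, between COL6A1 and COL6A2, or between COL4A1 and COL4A2. At t = 48 over control cells the differences were 1.06 and 0.48 for the first pair, 0.84 and 0.25 for the next, and -0.15 and -0.05 for the last, with COL3A1 and COL6A1 called. The difference between the members of a pair was not tested.

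Of the genes that make, process or bind collagen, those of modification were read first. At t = 48, 1 of 15 tested enzymes and chaperones of collagen modification was higher in induced than in control cells and 1 lower, beside 5.31% of all tested genes called higher and 3.29% lower. The first was P3H2, a prolyl 3-hydroxylase acting on type IV chains (2.32, adjusted p = 0.00165; means of 66.3 in induced and 10.8 in control cells), and the other was PLOD2, a lysyl hydroxylase of telopeptides (-0.65, adjusted p = 0.000178). Of 5 genes of propeptide removal 1 was higher, ADAMTS2, the N-proteinase of fibrillar procollagens (2.30, adjusted p = 0.00236). Of 5 crosslinking oxidases limma called LOXL4 higher (0.68, adjusted p = 0.00271) and LOXL3 lower (-0.54, adjusted p = 0.00525). P3H2 averaged 2.47 and ADAMTS2 8.53 at t = 0. These means and those of control cells (10.8 and 1.67) lay under the array medians. The entry of P3H2 and ADAMTS2 to the test may thus rest on induced arrays.

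Some matrix partners and degrading enzymes were called in the same comparison, whose share of all tested genes called was 8.6%; each of these lists holds few genes. Of 8 tested matrix proteins that bind fibrils, 2 were higher in induced cells (5.31% over all tested genes), LUM, the proteoglycan lumican (2.53, adjusted p = 9.59e-06; means of 67.8 in induced and 7.43 in control cells), and FN1, fibronectin (0.97, adjusted p = 0.000503). LUM averaged 9.73 at t = 0 and 11.7 at t = 8, under the array medians, as in control cells. Its entry to the test may thus rest on induced arrays of t = 24 and t = 48. Of 5 degradation genes, limma called CTSK, the collagen-cleaving cathepsin K (0.64, adjusted p = 0.0103), and MMP2, gelatinase A (0.41, adjusted p = 0.02), higher. No gene passed in limma among 8 of secretion or 6 collagen receptors, of which 1 and 2 had an unadjusted p under 0.05. Over all tested genes 23.5% had an unadjusted p under 0.05. At t = 24 over t = 0, MMP2 (1.28, adjusted p = 4.37e-06), PCOLCE, an enhancer of procollagen cleavage (0.63, adjusted p = 0.0158), and DDR2, a receptor kinase for fibrillar collagen (0.40, adjusted p = 0.00281), were higher, and ADGRG1, an adhesion receptor for type III collagen, was lower (-1.39, adjusted p = 0.0391). In that comparison 2 of 5 degradation genes, 2 of 5 of propeptide removal, 2 of 8 that bind fibrils, 3 of 15 of modification and 1 of 6 receptors were called higher. Called lower were 1 receptor and 1 gene each of modification, secretion and crosslinking. Over all tested genes 10.8% were called, 5.96% higher and 4.87% lower. No gene of these lists was called by limma between control cells at t = 48 and t = 0, where 8 had an unadjusted p under 0.05. Over all tested genes 0.847% were called there and 11.2% had an unadjusted p under 0.05. The lists held 15 tested genes of modification, 8 of secretion, 5 of propeptide removal and 5 of crosslinking. The others held 8 that bind fibrils, 6 receptors and 5 of degradation.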

How the data were processed

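The deposited table holds linear MAS5 intensity values of 15 Affymetrix arrays, named with GCOS in the submitters' processing notes, where neither has a version. Per the deposited values, each array has a mean of 100.01 after trimming 2 percent from each end, so the authors had scaled arrays as a whole. The genome build of the probe design is not given in the sources used here, and coordinates come from RefSeq on GRCh38.p14.

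Of 54675 probe sets, 41091 had 1 gene symbol, 1801 several and 11721 non-control ones were not listed; all 43 collagen genes matched RefSeq by Entrez identifier. An offset of 5.16, the mean lower quartile of the arrays, was added before log2. Genes reaching the array median on at least 3 arrays were kept. The 12868 genes were tested two-sided in R 4.3.3 with the lmFit and eBayes functions of limma 3.58.1, 1 mean per group, for 7 comparisons, with Benjamini-Hochberg adjustment and a threshold of 0.05. The fit was tested on simulated data with known changes. Figures used matplotlib 3.10.9.

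Alternatives covered the offset, centring, the filter, the probe set, the variance model, the arrays fitted, replicate number as a block, and leaving out arrays. Values of every array are printed for members called in any comparison. Other members are given by class, and at most 2 called genes per related list and comparison are named. The members and lists were chosen with earlier results of these data known. Precision is limited by the 3 arrays per group. Replicates of a group were compared over all probe sets, where log2 signals correlated at 0.9647 to 0.9792, and no pair looked like a copy of 1 array. Arrays of different groups correlated at 0.9493 to 0.9768, so the ranges overlapped.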

Additional observations from a re-analysis of the deposited data

Results flagged for a closer look

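These genes were marked because their change from t = 0 differed between a pair of induced times, as tested by limma between those times themselves. Between t = 24 and t = 8 the log2 differences were 2.55 for COL6A3, 1.67 for COL3A1, 0.96 for COL6A6, 0.95 for COL25A1, 0.66 for COL1A1, 0.65 for COL11A1, 0.59 for COL13A1 and 0.57 for COL6A1. Between t = 48 and t = 24 they were -0.58 for COL13A1 and -0.43 for COL4A1. COL13A1 is the one gene in both lists, higher at t = 24 than at t = 8 and lower at t = 48 than at t = 24. Each array was left out in turn, but with 3 arrays a group no test for single outlying arrays was made.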

How the results depend on the processing

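Of 39 calls of collagen genes over the 7 comparisons, 17 held under every alternative that gave a value, 22 were lost under at least 1, and 0 changed sign. Between induced and control cells at t = 48, COL6A3, COL13A1, COL3A1 and COL5A1 were called in all of them. Of 112 counts recomputed, 90 stayed within 1.5 times the reported count. With arrays centred on their median, 5 genes were called between t = 24 and t = 8. With no filter, 1, 7 and 1 were called for t = 8 over t = 0, t = 24 over t = 0 and t = 48 against t = 24, where more genes share the adjustment. With only the 2 groups compared in the fit, which leaves fewer arrays to estimate the spread, 1 was called for t = 8 over t = 0, 5 for t = 24 over t = 0, 3 for t = 24 over t = 8 and 1 for t = 48 against t = 24. Without the 2 arrays of weak hybridisation controls, 7 were called for t = 24 over t = 0, 5 for t = 24 over t = 8 and 1 for t = 48 against t = 24. Leaving out 1 array at a time gave 6 to 6 calls between induced and control cells, 1 to 3 at t = 8, 7 to 9 at t = 24 and 6 to 9 at t = 48 over t = 0, 0 to 0 for control cells over t = 0, 4 to 7 between t = 24 and t = 8 and 1 to 2 between t = 48 and t = 24. Over all tested genes, 1107 were called between induced and control cells, 575 after centring, 692 with no filter and 619 with the 2 groups alone. The counts at t = 8, t = 24 and t = 48 over t = 0 were 270, 1394 and 2333 as reported, and 130, 648 and 1197 after centring, and 52, 474 and 1124 with the 2 groups alone. With no filter, t = 24 over t = 0 had 922. At t = 24 against t = 8 there were 810 as reported, 231 after centring, 405 with no filter and 90 with the 2 groups alone, and at t = 48 against t = 24 there were 520, 296 after centring and 263 with the 2 groups alone. Control cells against t = 0 had 109 as reported, 31 after centring, 56 with no filter and 0 in limma with the 2 groups alone, where 1441 had an unadjusted p under 0.05. Without the 2 arrays of weak hybridisation controls, 490 were called at t = 24 against t = 8 and 339 at t = 48 against t = 24. The cause of these changes in the counts was not tested.

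The labels do not say whether the replicate number pairs the samples. Deviations from the group means of same-numbered arrays correlated at -0.28 to 0.21. Between arrays of different groups the highest such correlation, 0.368, joined the 2 arrays of weak hybridisation controls. Of 15 arrays, 3 correlated best with their own replicate number. With the number as a block, 6, 2, 9, 8, 0, 8 and 2 collagen genes were called, for induced over control cells, t = 8, t = 24, t = 48 and control cells over t = 0, t = 24 over t = 8 and t = 48 against t = 24. The 19 genes not tested, 14 of them under the array median on all arrays and 5 at or above it on 1 or 2, have low signals, and the absence of a call there does not show the absence of change.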

Other observations

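Of the 15 tested genes of collagen modification and folding, 2 were called higher and 4 lower at t = 48 over t = 0, beside 18.1% of all tested genes called, 9.93% higher and 8.2% lower. P3H3, a prolyl 3-hydroxylase, was lower (-0.90, adjusted p = 0.00534), and SERPINH1, which encodes the collagen chaperone HSP47, was lower (-0.44, adjusted p = 0.00251), while P3H2 was higher (3.24, adjusted p = 8.38e-05), as it was at t = 8 (2.18, adjusted p = 0.00617) and t = 24 (3.56, adjusted p = 4.96e-05). At t = 8 SERPINH1 had been higher than at t = 0 (0.34, adjusted p = 0.0474), with a mean of 979.2 then and 571.6 at t = 48. SPARC, a collagen-binding matrix protein, averaged 576.9 at t = 48 in induced cells, against 918.6 at t = 24 (-0.66, adjusted p = 0.00329), and LUM averaged 67.8 at t = 48 and 160.0 at t = 24 (-1.18, adjusted p = 0.00484). KDR, an endothelial receptor, exceeded its t = 0 level at t = 24 in limma (1.17, adjusted p = 0.0294). Its means were low, 27.6 at t = 24 against 9.70 at t = 0. It was 1 of 2 tested endothelial markers, beside 5.96% of all tested genes called higher. The other, PECAM1, gave 0.04 (adjusted p = 0.949), and CDH5, TEK and VWF were not tested. The t = 0 mean of KDR lay under the array medians, so its entry to the test may rest on induced arrays. Against control cells at t = 48, limma called P3H2 and LUM, as given above, but not P3H3, SERPINH1 or SPARC. The differences of these last were -0.41, -0.20 and -0.17 (adjusted p = 0.201, 0.137 and 0.37). Control cells at t = 48 also lay below t = 0 for P3H3, SERPINH1 and SPARC, without passing (-0.49, -0.23 and -0.36). All genes named here were picked after their values were seen.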
